A study of Mus musculus with 15 samples.

Results

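Some PU.1 peaks in mouse macrophages were called in a single control library, were called in neither library with a PU.1 hairpin, and still lay where PU.1 bound chromatin assembled in a tube. These are the regions described here. They were picked from the 4 peak lists made in cells and the 1 list made in vitro. Wherever peaks of the 4 lists overlapped by 1 bp or more they were joined, which gave 53107 regions. A region was a member if exactly 1 of the 2 control lists had a peak there, neither shPU.1 list did, and it shared at least 1 bp with an in vitro peak. The rule gave 2904 members. Of these, 2533 came from control replicate 2 and 371 from control replicate 1.

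PU.1 belongs to the ETS family of transcription factors and specifies the macrophage lineage. It recognises purine-rich DNA around a GGAA core and in macrophages it binds mostly enhancers, often with partners such as C/EBP and AP-1 factors. It is known for reaching sites that nucleosomes cover. A site can therefore be described both by whether PU.1 occupies it in a cell and by whether it binds the same DNA on nucleosomes outside the cell.

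All cells were bone marrow-derived macrophages of C57BL/6 mice on day 7 of differentiation. Both in vivo groups were infected with a retroviral vector and selected with puromycin (3 µg/ml, from day 3). The control vector carried a hairpin against Renilla luciferase (sh-Renilla), called empty in the sample titles, and the shPU.1 vector a hairpin against PU.1. The protocol given for both groups states 0.5 µg/ml doxycycline for 48 hours from day 5 and fixation in 1% formaldehyde for 10 min. Each group had 2 chromatin immunoprecipitation (ChIP) libraries made with a rabbit antibody to the N-terminus of PU.1. The in vitro list came from uninfected macrophage DNA assembled with recombinant histones and kept for 2 hours in a nuclear extract of macrophages. This extract had been depleted with normal IgG, and an extract depleted of PU.1 with 8 µg of the antibody was the background. The in vitro pair had 1 library for each extract, so there is no replicate in vitro. The labels do not say whether replicates came from separate mice or cultures, so the spread between them may be technical.

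The libraries of replicate 2 stood apart from those of replicate 1 by peak width. The lists held 15122 to 36759 peaks in cells and 57512 in vitro. The median width was 435 and 448 bp in replicate 1 of the control and shPU.1 groups, 892 and 1076 bp in replicate 2, and 846 bp in vitro. The score of a peak is the peak caller's, it starts at 50 in every list, and it rises with sequencing depth, which is unknown here. It is given below as a percentile within its own list, where 100 is the highest. Peak lists hold no expression values, so the macrophage label was not checked against marker genes, and the strength of the knockdown cannot be read from them. Fewer peaks in a library cannot be told apart from fewer reads or a weaker immunoprecipitation.

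The first question was how much of the weak, single-library PU.1 signal coincided with in vitro binding. The values in this paragraph, and the in vitro shares by list combination, width, score and rank below, are those that chose the members. They are given as a description. A region of any kind held an in vitro peak in 22.3% of cases (11848 of 53107). Among the 14755 regions with a peak in 1 control list and in no shPU.1 list, the share was 19.7%. It was 15.7% over all regions of 1 list, whichever the list (25292), and 28.3% over regions of 2 or more lists (27815). Within the single-list control regions it was 26.9% for the 9410 of control replicate 2 (exact 95% interval 26.0 to 27.8) and 6.94% for the 5345 of control replicate 1 (6.27 to 7.66). These intervals, like those on the shares below, cover the counting of regions within a library, not the variation between cultures. Regions seen only in shPU.1 replicate 1 held one in 6.00% (5.21 to 6.88). Regions seen only in shPU.1 replicate 2 held an in vitro peak in 12.0% (11.3 to 12.8). The mean over libraries was 16.9% ± 14.1 (SD, n = 2) in the control group and 9.02% ± 4.27 (SD, n = 2) under the hairpin. The difference of 7.91 points (0.94 within number 1, 14.9 within number 2) was smaller than the gap between the 2 control libraries. No test is read from it, since these shares chose the members and 2 against 2 libraries cannot give an exact permutation p below 0.33. The difference turned to -3.81 points without control replicate 2 and to -6.01 points with peaks of a score of at least 100. For the latter, peaks under 100 were removed from the in vivo lists and the in vitro list before merging. A region of 1 list could then hold weaker peaks of other lists, so these are not the strong part of the regions above. In that setting shPU.1 replicate 1 alone had a share of 20.9% (27 of 129), against 4.69% for control replicate 1 alone. Control replicate 2 alone had 22.3% (1420 of 6360), and shPU.1 replicate 2 alone 18.1% (301 of 1662).

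Across the 15 combinations of the 4 lists, adding control replicate 2 or either shPU.1 list always went with a higher in vitro share. Adding control replicate 1 went with a higher share in some combinations and a lower share in others. With a single shPU.1 list added, a region of control replicate 2 held an in vitro peak in 28.7% (shPU.1 replicate 1) and 31.9% (shPU.1 replicate 2) of cases. The same combinations with control replicate 1 gave 12.4% and 17.6%. With both shPU.1 lists the shares were 38.8% for control replicate 2 and 27.0% for control replicate 1. Regions of both control lists and no shPU.1 list held an in vitro peak in 13.3% of cases, less than regions of control replicate 2 alone, and regions of both controls and shPU.1 replicate 1 in 16.0%. With shPU.1 replicate 2 as the third list the share was 26.9%. Regions of both shPU.1 lists and no control list reached 31.0% (84 of 271). Regions of all 4 lists had the highest share, 39.5%.

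**Figure D1:**
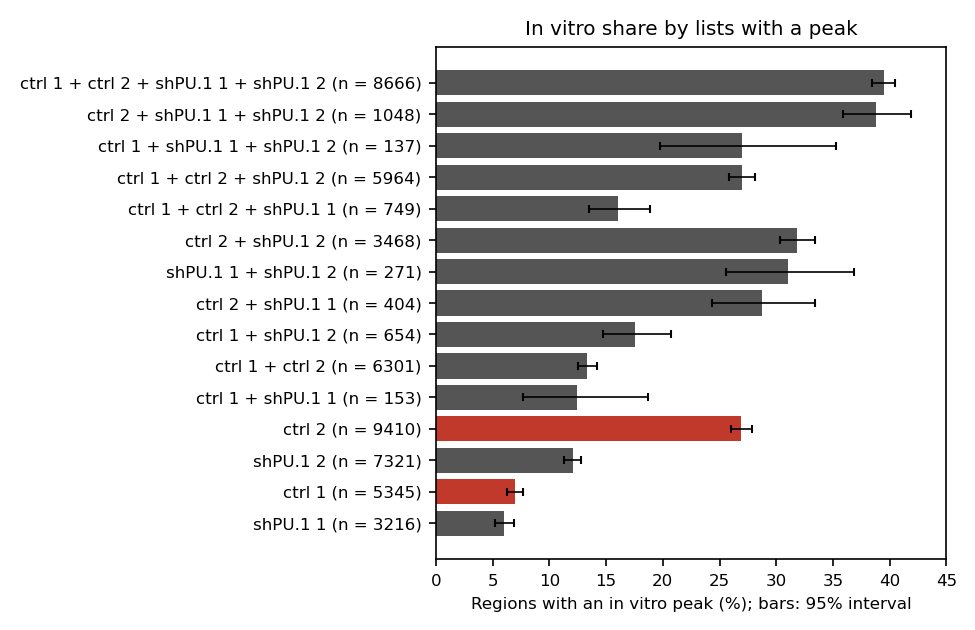
Share of merged regions that hold an in vitro PU.1 peak (x axis, percent) for each of the 15 combinations of lists with a peak (y axis; ctrl is control, n is the number of regions). Whiskers are exact 95% counting intervals and the 2 red bars are the combinations the members come from: control replicate 2 alone reaches 26.9%, control replicate 1 alone 6.94%.

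With the in vitro peaks moved by 50 kb along their chromosomes, the rule gave 598 regions in place of 2904, 4.86 times fewer. The count from control replicate 2 was 424 in place of 2533, 5.97 times fewer. The count from control replicate 1 was 174 in place of 371, 2.13 times fewer. The overlap moved here is the one that chose the members, and only a single shift was made. The counts are therefore a description and no test.

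The 2 control libraries differed at every width. Among single-library regions up to 400 bp wide, 26.0% of those of control replicate 2 (71 of 273) held an in vitro peak, against 8.38% of those of control replicate 1 (275 of 3282). Between 400 and 600 bp the shares were 30.0% and 5.43%. Between 600 and 800 bp they were 28.1% and 1.90%. Regions over 1000 bp had the lowest share in both libraries, 20.6% in control replicate 2 and 0 of 31 regions in control replicate 1, where the exact 95% interval reaches up to 11.2%.

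The members were weak in cells, as their working description says, although not all of them. Those of control replicate 2 had a median score of 77.4 (quartiles 61.8 and 108; range 50.0 to 646). That is a median percentile of 27.6 in their list (quartiles 13.7 and 45.3). Those of control replicate 1 had a median score of 63.6 (quartiles 55.9 and 73.4; range 50.1 to 169), a percentile of 20.8 (9.84 and 33.2). In control replicate 2, 491 members (19.4%) lay above percentile 50 and 3 above percentile 90. In control replicate 1, 33 members (8.89%) lay above percentile 50 and none above percentile 76.1. A low rank follows in part from the rule, since strong peaks are more often found in several libraries.

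Set against the same library's regions without an in vitro peak, the members differed in opposite directions in the 2 controls. In control replicate 2 the members ranked higher, with a median percentile of 27.6 against 21.3. In control replicate 1 they ranked slightly lower, 20.8 against 23.0. Quartiles of both comparisons overlapped widely. The opposite trend showed along the score too. From the lowest to the highest decile of score, the share with an in vitro peak went from 20.8% to 43.4% in control replicate 2. It went from 6.92% to 3.56% in control replicate 1. In the shPU.1 libraries the share went from 5.90% to 9.97% (replicate 1) and from 7.78% to 22.4% (replicate 2). The 2 libraries numbered 2 thus shared a rise that was small in 1 of those numbered 1 and absent in the other.

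**Figure D2:**
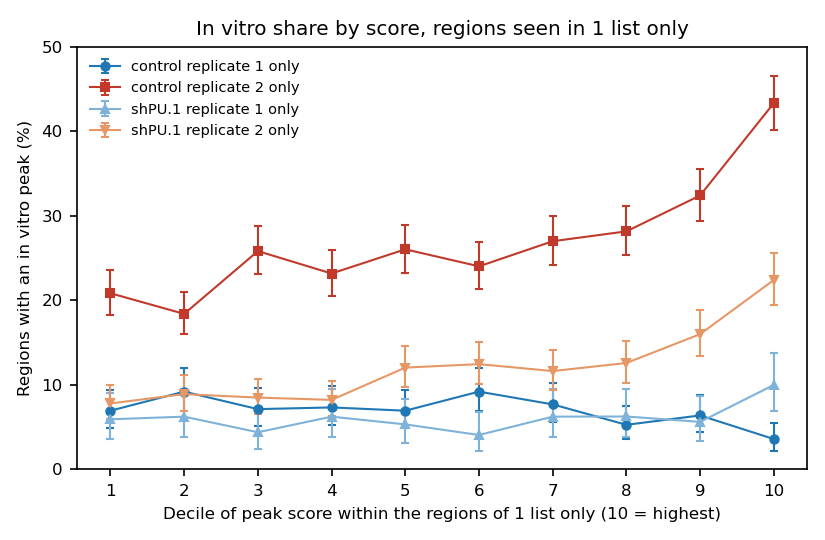
Share of single-list regions with an in vitro peak (y axis, percent, exact 95% counting intervals) by decile of peak score within those regions (x axis, 10 is the highest) in each of the 4 libraries. Control replicate 2 lies above the other libraries in every decile and ends at 43.4%, while control replicate 1 ends at 3.56%.

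At the same rank in control replicate 2, regions of that list alone held an in vitro peak more often than regions of both control lists and no shPU.1 list. The shares rest on values that chose the members and are a description, not a test. Up to percentile 20, 22.3% of the regions of control replicate 2 alone held an in vitro peak (934 of 4179), against 11.2% of the regions in both control lists and no shPU.1 list (142 of 1267). Between percentiles 40 and 60 the shares were 33.1% and 13.9%. Between percentiles 60 and 80 they were 45.1% (232 of 514) and 14.7% (204 of 1390). Above percentile 80 they were 71.4% (30 of 42; exact 95% interval 55.4 to 84.3) and 16.3% (71 of 435; 13.0 to 20.1). Regions of all 4 lists held one in 24.1% up to percentile 20 (34 of 141; exact 95% interval 17.3 to 32.0) and in 26.5% between 40 and 60. Above 80 it was 45.3%, less than control replicate 2 alone. The intervals cover counting only, and regions are not replicates. Over all regions above percentile 60, the difference between regions of control replicate 2 alone and of both controls was 32.1 points (47.1% against 15.1%). In control replicate 1 the order was the other way round: above percentile 60 its own regions held an in vitro peak in 3.74% (14 of 374) and regions of both controls in 7.87% (156 of 1982). None of the 70 regions of control replicate 1 alone above percentile 80 did (exact 95% interval up to 5.13%).

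The gap in control replicate 2 changed with how peaks were joined. When peaks were cut down to the 200 bp around their centre before merging, 2341 regions of control replicate 2 stood alone above percentile 60 in place of 556, and the difference was -0.29 points (15.0% against 15.2%). With regions merged from whole peaks and only the in vitro overlap limited to the central 200 bp, it was 24.2 points (36.3% against 12.1%). Without shPU.1 replicate 2, so that its peaks no longer removed regions, the difference was 19.9 points in control replicate 2 and -11.1 points in control replicate 1, against -4.13 with that library.

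**Figure D3:**
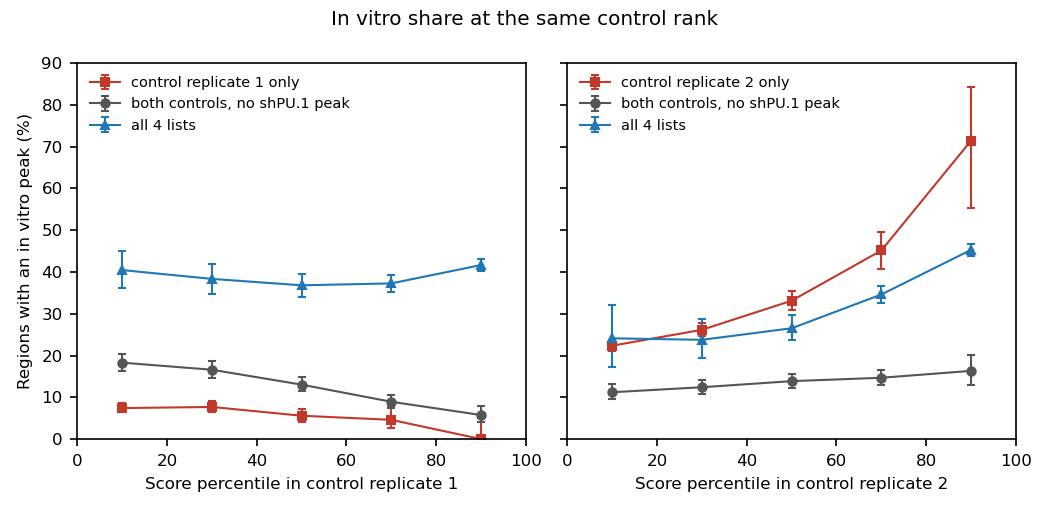
Share of regions with an in vitro peak (y axis, percent, exact 95% counting intervals) by score percentile in control replicate 1 (left) or control replicate 2 (right), in steps of 20 percentiles, for regions of that list alone (red), of both controls only (grey) and of all 4 lists (blue). On the right the red line rises from 22.3% to 71.4% and lies above the grey one throughout; on the left it lies below it.

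The strongest members showed this combination of a high rank in 1 control library and no peak elsewhere. The highest of control replicate 2 lay at chromosome 1, 123327010 to 123328533 (mm9). It scored 646 there (percentile 94.3) and 500 in vitro (94.2), and the nearest peak of control replicate 1 was 21818 bp away and the nearest shPU.1 peak 29727 bp. The next, at chromosome 18, 31975876 to 31976901, scored 495 in control replicate 2 and 282 in vitro, and the control peak lay wholly within the in vitro peak. Its nearest peak of another in vivo list was 11830 bp away. The third, at chromosome 14, 33094581 to 33095258, scored 487 and 231, with no peak of another in vivo list within 59256 bp. Each of these 3 regions had more than 10 kb on either side with no peak of another in vivo list.

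The fourth was a near miss. The region at chromosome 13, 10250577 to 10251508, scored 464 in control replicate 2, but a peak of shPU.1 replicate 2 lay 38 bp away, and the nearest peaks of shPU.1 replicate 1 and control replicate 1 were 793 and 802 bp away. The fifth, at chromosome 3, 126620864 to 126621339, scored 416 in control replicate 2 and 471 in vitro. Its nearest peaks in the other 3 lists were all between 4749 and 4968 bp away.

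The highest members of control replicate 1 were lower. In all 5 the centres of the control and in vitro peaks lay further apart than the member median of that library, 83 bp. The first, at chromosome 5, 76635005 to 76635303, scored 169 (percentile 76.1), and its peak shared only 18 bp with an in vitro peak of score 116. The second was at chromosome 10, 11211820 to 11212096, with a score of 150 and an in vitro score of 61.2 (percentile 16.9). The third, at chromosome 11, 21352610 to 21352970, scored 133 and lay wholly within an in vitro peak of score 145, with centres 123 bp apart. The fourth, at chromosome 15, 66409138 to 66409788, scored 129 and shared 17 bp with its in vitro peak, the smallest overlap of any member of that library. The fifth was at chromosome 9, 120554937 to 120555371, with a score of 126 and an in vitro score of 96.4. Peaks of 2 of these 5 thus only touched the edge of the in vitro peak. The centres of the others, apart from the third, were 311.5 and 242 bp apart.

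The in vitro peaks on the members had medians above percentile 50 of their list, unlike the peaks in cells. Those at or below percentile 50 made up 32.1% (813) in control replicate 2 and 40.4% (150) in control replicate 1. Their median in vitro score was 163 for members of control replicate 2 (percentile 69.8; quartiles 40.0 and 89.7). It was 128 for members of control replicate 1 (60.2; 33.1 and 81.4). In vitro peaks on regions of all 4 lists had a median percentile of 70.3, on regions of both controls only 65.5, and on no in vivo region 46.1. Members of control replicate 2 therefore ranked in vitro like the sites found in every library (69.8 and 70.3). In cells the median percentiles in control replicate 2 were 27.6 for members and 87.9 for regions of all 4 lists. The gap in cells follows in part from the rule, since strong peaks are more often found in several libraries. An in vitro peak above percentile 90 lay on 619 members of control replicate 2 (24.4%) and on 43 of control replicate 1 (11.6%). For regions of all 4 lists this was 23.7% (811 of 3420).

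**Figure D4:**
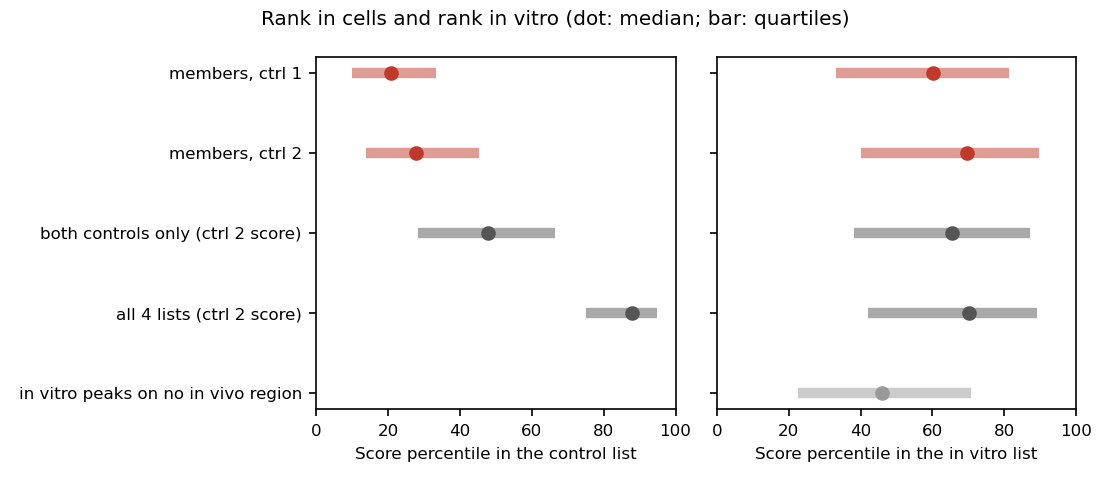
Median (dot) and quartiles (bar) of the score percentile in the control list (left, x axis) and in the in vitro list (right, x axis) for members of each control library, regions of both controls only and regions of all 4 lists that hold an in vitro peak, and for in vitro peaks on no in vivo region. Members of control replicate 2 lie far below the regions of all 4 lists in cells (27.6 against 87.9), which follows in part from the rule. They lie beside them in vitro (69.8 against 70.3). Members of control replicate 1 have an in vitro median of 60.2.

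Seen from the in vitro list, 2896 of its peaks (5.04%) lay on a member. In the first decile of in vitro score 2.35% did so (1.97 to 2.77), and in the last 11.4% (10.6 to 12.3). For regions of all 4 lists it went from 3.01% to 14.2%, and for regions of both controls only from 0.869% to 3.22%. Within the members, the score in cells and the score in vitro were only loosely related. Across the 2533 members of control replicate 2, Pearson's r of the log10 scores was 0.16 and Spearman's rho 0.14. Across the 371 of control replicate 1 they were 0.044 and 0.046. Regions of all 4 lists with an in vitro peak were similar, with 0.19 and 0.17 in control replicate 2 and 0.077 and 0.063 in control replicate 1. These are descriptions across regions of shared libraries, and regions are not replicates.

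The 11 members with an in vitro score of 3100, a value many peaks share, all came from control replicate 2, and the 5 first by position ranked there between percentiles 7.57 and 65.4. In order of position, the first lay at chromosome 2, 163149061 to 163150018, with a score of 178 in control replicate 2 (percentile 65.4). The next 2, at chromosome 3, 43745473 to 43746348 and 43748127 to 43748817, sat on the same in vitro peak, which spanned 9209 bp, and scored 112 and 56.4 in control replicate 2. The fourth was at chromosome 4, 151901972 to 151902642, with a score of 100.3, and the fifth at chromosome 7, 30362446 to 30363624, with 105. Wide in vitro peaks of this kind were rare: 6 of the 2533 members of control replicate 2, and none of control replicate 1, lay on one over 3 kb wide.

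The rule asked for 1 bp of overlap, and most members went far beyond that. The centre of the control peak and that of the in vitro peak were a median of 97 bp apart in control replicate 2 (quartiles 45 and 176.5) and 83 bp in control replicate 1 (35.5 and 165). Centres lay within 100 bp of each other in 51.4% of the members of control replicate 2 (1302 of 2533) and in 55.8% of those of control replicate 1 (207 of 371). They lay within 200 bp in 80.1% and 79.8%. For scale, the median in vitro peak on a member was 948 bp wide in the first case and 899 bp in the second. The whole control peak lay inside the in vitro peak in 52.7% of the members of control replicate 2 and in 84.4% of those of control replicate 1, whose peaks were narrower (medians 702 and 322 bp). There was no shift to one side, with signed medians of 5.5 and -3.5 bp.

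The distance was also taken in regions of more libraries. There the strongest control peak of a region need not overlap the in vitro peak, whereas by the rule a member's does, so the distances are in part fixed by the choice of regions. In control replicate 2 the median distance was 120 bp for regions of both controls only and 125 bp for regions of all 4 lists, against 97 bp for members. Their control peaks were also wider, with medians of 873.5 and 1111.5 bp. In control replicate 1 the 3 medians were 97, 92.5 and 83 bp. Among regions whose control peak did overlap the in vitro peak, a restriction added after seeing the data, the medians in control replicate 1 were 82.75 bp (both controls only, 766 of 840) and 84 bp (all 4 lists, 3158 of 3420), next to the 83 bp of members. In control replicate 2 they were 120 and 121 bp, against 97 bp. Regions seen only in a shPU.1 list had medians of 132.5 bp (replicate 1) and 142 bp (replicate 2). Close to the threshold of the rule, 9 members of control replicate 2 and 5 of control replicate 1 shared up to 50 bp with their in vitro peak. Just outside it, 17 and 7 regions had an in vitro peak within 50 bp but not shared.

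**Figure D5:**
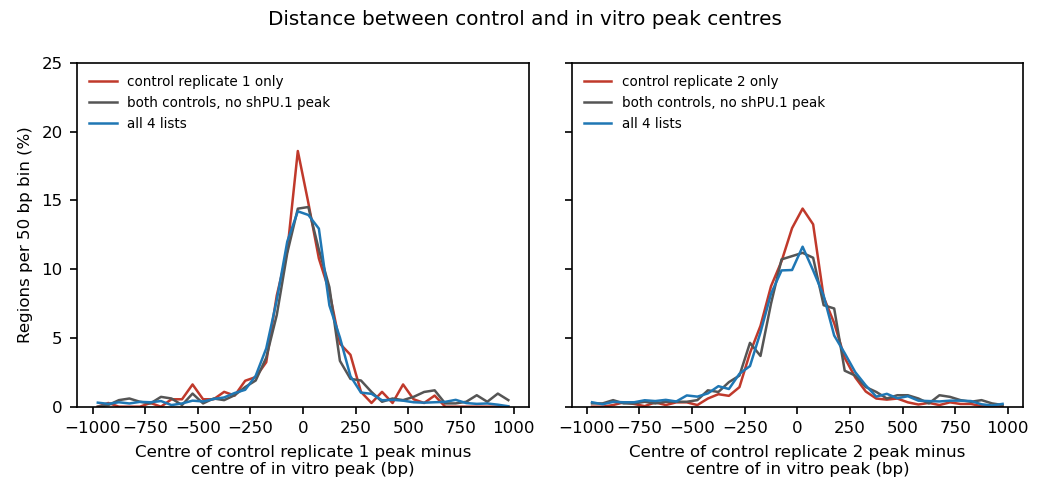
Distance from the centre of the in vitro peak to the centre of the control peak (x axis, bp) in bins of 50 bp (y axis, percent of regions) for control replicate 1 (left) and control replicate 2 (right): members (red), regions of both controls only (grey) and regions of all 4 lists (blue), each with an in vitro peak. All 6 lines peak near 0, and on the right the red line is the narrowest, with 51.4% of members within 100 bp.

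Typical members can be read from those nearest the medians of control replicate 2 in both rankings. The region at chromosome 10, 111720834 to 111721473, scored 77.9 in control replicate 2 and 160 in vitro. Its peak centres were 80 bp apart, and no peak of another in vivo list lay within 143406 bp. The region at chromosome 10, 120117360 to 120117978, scored 78.2 and 165, with centres 40 bp apart and a peak of control replicate 1 at 5392 bp. The region at chromosome 8, 125548667 to 125550020, scored 76.4 and 162, with centres 450 bp apart and peaks of the 3 other lists between 5967 and 6674 bp away.

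Only 9 members, all of control replicate 2, held 2 in vitro peaks, and none held more. The first 5 by position are given here. On chromosome 2 they spanned 84363870 to 84364793 and 128387128 to 128388587. On chromosome 13 they spanned 5510473 to 5511885 and 111358316 to 111359494. On chromosome 14 there was the region from 61785972 to 61787128. The second of the 5 had in vitro scores of 373 and 308, both above percentile 80 of the in vitro list, and 170 in control replicate 2. The last had in vitro scores of 734 and 66.2. In turn, 17 in vitro peaks lay on 2 members each.

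The members stood further from PU.1 peaks of other in vivo lists than did single-library regions without an in vitro peak. For members of control replicate 2 the nearest peak of control replicate 1 was a median of 16717 bp away, against 10787 bp for regions of the same list without an in vitro peak. A peak of control replicate 1 lay within 10 kb of 35.1% (890 of 2533) of the former and 48.1% (3310 of 6877) of the latter. A peak of either shPU.1 list lay within 10 kb of 37.3% and 48.1%. For control replicate 1 the median gap to a peak of control replicate 2 was 11546 bp for members and 8123.5 bp for the others, and a shPU.1 peak lay within 10 kb of 43.9% and 46.7%. The direction was the same in both libraries. Without shPU.1 replicate 2, a shPU.1 peak lay within 10 kb of 21.2% of all members, against 38.1% with it.

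A shPU.1 peak just beyond the region was uncommon with or without in vitro binding. A peak of either shPU.1 list lay within 500 bp of 2.68% (68) of the members of control replicate 2 and 1.89% (7) of those of control replicate 1. For regions of the same libraries without an in vitro peak it was 4.39% (302 of 6877) and 3.72% (185 of 4974). With peaks within 500 bp joined, 2768 members were left. Regions of all 4 lists also stood further away: their median gap was 56507 bp from members of control replicate 2 and 39578 bp from its regions without an in vitro peak, and 54832 bp against 42150 bp for control replicate 1.

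The members were scattered over the genome. The median gap from a member to the next was 166913 bp, and 182 members (6.27%) had another within 10 kb. Of the 1434 windows of 1 Mb that held a member, 647 held only 1 and 80 held 5 or more. The densest held 8 each: chromosome 3, 65000001 to 66000000, with 32 in vitro peaks, and chromosome 17, 79000001 to 80000000, with 40. The next was chromosome 1, 140000001 to 141000000, with 7 members and 48 in vitro peaks. All 8 members of each of the first 2 windows came from control replicate 2, with median percentiles there of 22.6 and 36.1 and in vitro medians of 77.8 and 82.6.

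By chromosome, the autosomes held 1.16 members per Mb, from 0.903 on chromosome 18 to 1.42 on chromosome 2. Chromosome X held 0.27 per Mb (45 members), with 6.72 in vitro peaks per Mb against 22.8 on the autosomes. Other in vivo regions were sparse there too. Single-library control regions without an in vitro peak stood at 1.72 per Mb, against 4.68 over the autosomes. Regions of all 4 lists stood at 0.637 per Mb, against 2.65 (chromosome 14) to 5.16 (chromosome 11) on autosomes. Among regions of control replicate 2 alone, 16.5% of those on chromosome X held an in vitro peak, less than on any autosome (20.4% on chromosome 11 to 33.9% on chromosome 13). Chromosome 11 combined the most single-library control regions without an in vitro peak per Mb (7.63, against 4.68 over the autosomes) with the lowest autosomal share. Chromosome Y held 2 members and the mitochondrial genome none.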

How the data were processed

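Per the submitters' processing notes, the authors used Bowtie 0.12.7, mm9 and MACS 1.4, with settings not given here. The 5 deposited BED lists hold a peak score, which MACS by convention sets to 10 times the negative log10 of p. In vivo peaks were called per library against an input and the in vitro list against the PU.1-depleted library, per the deposited files' names. Depth is unknown, so scores were ranked only within a list. The 9 MNase samples were not used here.

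Peaks were merged, overlapped and ranked with Python 3.11.15, pandas 2.3.3 and SciPy 1.17.1. A region took the best score among its peaks in a list. Positions are counted from 1. The code was tested on simulated lists and against brute force. With 2 libraries a group, regions are described without tests between regions. The planned exact permutation over 2 against 2 libraries is not read as a test. Named regions were the 5 members with the highest percentile in each control list, the 5 with the highest in vitro score, the 5 with the most in vitro peaks, the 3 nearest the medians of both rankings, and the 3 densest 1 Mb windows. Members, lists and the comparison above percentile 60 were chosen with earlier results of these data known. Motif, promoter and gene results needed an mm9 genome and were not analysed here.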

Additional observations from a re-analysis of the deposited data

How the results depend on the processing

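Depth, unknown for every list, limits all values, as do 2 libraries a group. The in vitro percentile of members moved by less than the difference between the control libraries under all 11 alternatives run on it. With peaks under 100 removed from every list before merging, there were 1502 members (94.5% from control replicate 2). These include regions where other lists had only weaker peaks. Of the members under the main rule, 759 of control replicate 2 and 25 of control replicate 1 scored at least 100. In this setting 23.6% had a shPU.1 peak within 10 kb, and the control minus shPU.1 share reversed to -6.01 points. The differences above percentile 60 were 28.5 points (control replicate 2) and -3.05 (control replicate 1). With peaks trimmed to 200 bp, 81.3% came from control replicate 2, centres were 77 bp apart, 46.0% had a shPU.1 peak within 10 kb, and the difference above percentile 60 of control replicate 2 reversed to -0.29. With in vivo lists of equal length there were 908 members (74.7% from control replicate 2). With in vitro peaks shifted by 50 kb there were 598 (70.9%).

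Leaving out 1 library gave 1175 (without control replicate 2) to 4184 members (without shPU.1 replicate 2), 0 to 100% from control replicate 2 by construction, median control percentiles of 27.2 to 32.2, and 21.2% to 46.2% with a shPU.1 peak within 10 kb. The control minus shPU.1 share ran from -3.81 (without control replicate 2) to 12.0 points. Centre distances ran from 88.5 to 101.5 bp, and the differences above percentile 60 from 19.9 to 32.1 points (control replicate 2) and from -11.1 to -4.13 (control replicate 1), with 19.9 and -11.1 reached without shPU.1 replicate 2. No value of these differences was computed without a control library, and the planned motif and promoter results were not run. With in vitro overlap of the central 200 bp only, chosen after seeing the data as were the differences above percentile 60, centres were 75 bp apart and that difference 24.2 points. The replicate number as a block cannot change the share difference in this balanced layout, so it stayed at 7.91 points. The numbers are not stated to pair the libraries. The correlation between groups of their differences was 0.032 over 53107 regions, each of them called in at least 1 list. Median peak width did go with the number (435 and 448 bp against 892 and 1076 bp). Pairing was not tested, nor was the cause of the changes between settings.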

Other observations

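Regions seen only in a shPU.1 library and holding an in vitro peak are the mirror of the members. The first hairpin library had 193 of them and the second 881. Their in vitro peaks had median percentiles of 60.4 and 59.5, near the 60.2 of members of control replicate 1 and below the 69.8 of members of control replicate 2. In vitro peaks over 3 kb wide lay under 11 of the 193 and 11 of the 881, against 6 of the 2533 members of control replicate 2. The widest in vitro peak under the 193 spanned 25235 bp. Among the 12 regions over 1000 bp wide in shPU.1 replicate 1 alone, 11 held an in vitro peak. How many separate in vitro peaks these 11 lay on was not counted.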
